A study of Mus musculus with 2 samples.

Results

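The genes described here are the myosin light chains and the kinases that phosphorylate them: the essential light chains Myl1, Myl3, Myl4, Myl6 and Myl6b, the regulatory light chains Myl2 and Mylpf, and the kinases Mylk2, Mylk3 and Mylk4. They were chosen by name, and their probes by the transcript accession printed with each probe. Of these 10 genes, 9 had a probe, among 23458 genes with one, and 16 probes belonged to them. Mylk4, another member of the kinase family, had no matched probe and was not analysed here.

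RNA from pooled single muscle fibres of male mice was hybridised in 1 colour (Cy3) to 2 mouse arrays, 1 for fast and 1 for slow fibres. The mice, 8 in all and 6 to 8 weeks old, were GFP-Myh7 heterozygous (G/+), so both pools carry the tagged allele of Myh7, the slow myosin heavy chain. The fast pool held 4447 fibres without GFP from the extensor digitorum longus (EDL), a fast muscle of the lower leg, and the slow pool held 1659 GFP-positive fibres from the soleus, a postural calf muscle. For the slow sample one tissue label reads EDL, whereas the source label and the protocol give the soleus, which was taken as its origin. The labels name no drug or other treatment. Muscle of origin and fibre type differ together between the pools and cannot be told apart, and each pool mixes fibres of the same animals.

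A myosin motor consists of a pair of heavy chains, each with an essential and a regulatory light chain wrapped around its lever arm. The light chains stiffen the lever and tune its speed, and different genes supply them in fast, slow, cardiac and non-muscle cells. When calcium rises, calmodulin switches on a light chain kinase, which phosphorylates the regulatory chain, and a myosin phosphatase removes the phosphate. In fast skeletal fibres this phosphorylation is known to raise twitch force after repeated stimulation.

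Well above background were 52.3% of non-control spots in the fast pool and 50.9% in the slow pool, and no spot was saturated. Of the genes, 12846 were well above background on both arrays, 1161 on the fast array only and 640 on the slow array only. Each pool was hybridised once, so no difference has a replicate check or a test, and genes were called past 2-fold by size. Each difference below is slow minus fast, in log2 processed signal after the 75th percentile of each array was subtracted. The error given is the scanner software's error of the difference, in log2 units (1 SD). It was 0.204 alike for the bright probes of Myl1, Myl3 and Mylpf, so it is not a spread measured gene by gene. Its median over genes was 0.20, while repeated spots of 1 probe differed by a median SD of 0.05, and neither covers variation between animals or pools. Fibre labels held in the markers: all 5 slow fibre markers passed 2-fold towards the slow pool and all 9 fast fibre markers towards the fast pool. Myh7 had processed signals of 1094 in fast and 316863 in slow fibres, and Myh4, the heavy chain of the fastest fibres, 160781 and 57.9. Myh4 differed most among the fast fibre markers, whose differences ran from -11.5 to -1.38. The fast marker at -1.38 read 217476 in fast and still 89427 in slow fibres. Differences of the slow fibre markers ran from 6.29 to 9.81. Signals of different probes are not compared as levels. In pooled RNA, fewer fibres of a type and less RNA per fibre cannot be told apart.

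Light chains and kinases separated the pools in both directions. Of the 9 genes, 4 passed 2-fold towards slow fibres, namely Myl6b, Myl2, Myl3 and Mylk3, as did 10.7% of all 14647 genes above background on at least 1 array. Another 3, Mylpf, Mylk2 and Myl1, were passed it towards fast fibres, as did 14.3% of all genes. Myl4 and Myl6 lay within 2-fold. The shares of the 9 genes, 44.4% and 33.3%, were above those backgrounds, but the genes were listed with results of these arrays known. Over the 8 genes measured on both arrays the median difference was -0.39, against 0.05 over all 12846 genes, because the members fall on both sides of 0.

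**Figure D1:**
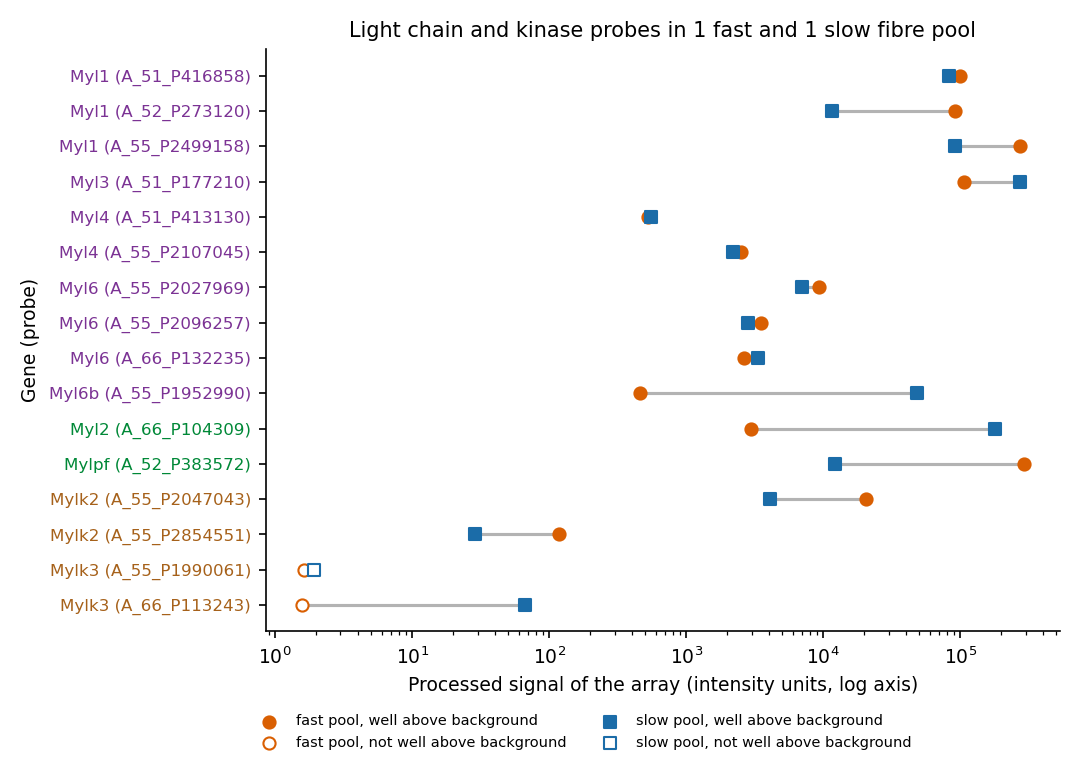
Processed signal (log axis) of all 16 probes of the light chain and kinase genes, with a circle for the fast pool and a square for the slow pool, filled where the spot was well above background; each point is 1 spot with no replicate. Label colours mark essential light chains (purple), regulatory light chains (green) and kinases (brown). The longest lines between filled points belong to Myl6b (457 and 48739), Myl2 and Mylpf, while the paired points of Myl4 and Myl6 nearly touch.

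The regulatory light chains differed in opposite directions. Mylpf, the fast skeletal regulatory chain, had a processed signal of 290446 in fast and 12135 in slow fibres. It was well above background in both pools and lower in slow fibres, with a log2 difference of -4.68 ± 0.20, or 25.6-fold higher in fast fibres. Myl2, the regulatory chain of slow fibres and of the heart's ventricles, had 2961 in fast and 180238 in slow fibres. Its difference was 5.83 ± 0.20, which is 56.9-fold higher in slow fibres. The ratio of the Myl2 to the Mylpf signal, which does not depend on any constant scaling between arrays, rose 1457-fold from fast to slow fibres (log2 change 10.51 ± 0.29). Myl2 ranked 13 of 12846 genes from the slow end and Mylpf 39 from the fast end. The genes nearest to Mylpf, likeness being the gap between log2 differences over 2 arrays, were Ifi30, a lysosomal thiol reductase, at -4.70, Gimap9 at -4.65 and Smox, spermine oxidase, at -4.65. Each gene has a single probe, so neither value has a second probe to set beside it.

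The windows of 250 bases before the first listed start of these genes are shown because the pair lies furthest apart among light chains of the same role; the sequences are from RefSeq, build GRCm38.p6. The capitals mark matches on either strand to the E-box CANNTG, the TATA box TATAAA, the MCAT element CATTCC, the estrogen-related receptor element TNAAGGTCA, the MEF2 box or the CArG box, and a MEF2 box can overlap a TATA box.
Mylpf, chr7:127211358-127211607, plus strand: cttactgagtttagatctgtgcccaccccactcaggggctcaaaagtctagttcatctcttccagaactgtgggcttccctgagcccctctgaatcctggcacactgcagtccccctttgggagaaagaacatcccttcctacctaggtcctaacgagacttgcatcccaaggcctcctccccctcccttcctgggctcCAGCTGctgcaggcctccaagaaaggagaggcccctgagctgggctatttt
Myl2, chr5:122092474-122092723, plus strand: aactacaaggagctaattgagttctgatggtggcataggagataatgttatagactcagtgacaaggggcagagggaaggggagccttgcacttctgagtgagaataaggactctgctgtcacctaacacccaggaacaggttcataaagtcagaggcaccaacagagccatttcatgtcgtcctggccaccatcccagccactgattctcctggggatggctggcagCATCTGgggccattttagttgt
Each printed window held 1 E-box and none of the other elements. The Mylpf E-box, with the bases CAGCTG that muscle regulatory factors of the MyoD family are known to bind, began at position -51, counted back from -1 as the last base before the start. That of Myl2 began at -22. The window before a second listed Myl2 start, not printed, held E-boxes at -130 and -48 and a TATA box at -216. Its E-box at -130 had the same letters, CAGCTG, as that of Mylpf. Of 21263 windows of the same length before starts of protein-coding genes, 62.8% held an E-box, 11.6% a TATA box, 11.7% an MCAT element, 2.61% a MEF2 box, 1.39% a CArG box and 0.955% an estrogen-related receptor element. A match is a string of letters, not a shown binding site.

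Among the essential light chains, Myl6b differed most. Myl6b, an essential chain known from slow muscle and from non-muscle cells, had a signal of 457 in fast and 48739 in slow fibres. The slow pool was higher by 6.64 ± 0.20, or 99.6-fold, and Myl6b ranked 9 of 12846 from the slow end. By the same measure its nearest genes were Gm36788 at 6.46, Rspo3, which strengthens Wnt signals from outside the cell, at 6.31 and Tnnt1, the slow troponin T, at 6.29.

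Its neighbour Myl6, the essential chain of smooth muscle and non-muscle myosin, did not pass 2-fold. The genes lie 270 bases apart on chromosome 10, with no other gene listed between them in the RefSeq table of GRCm38.p6. The brightest Myl6 probe read 9261 in fast and 7046 in slow fibres (-0.49 ± 0.20), another read 3510 and 2836 (-0.41 ± 0.20), and the third 2658 and 3350 (0.24 ± 0.20). The first 2 were higher in the fast pool and the third in the slow pool, each by less than 1.5-fold as processed here. The brightest lay at -0.61 with the authors' values. Under spike-in scaling the second lay at -0.01 and the third at 0.63. From fast to slow fibres the Myl6b signal rose 140-fold relative to that of Myl6 (7.13 ± 0.29).

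Myl3, the essential chain of slow fibres and ventricles, differed far less than Myl2 and Myl6b. Its single probe gave 106998 in fast and 273785 in slow fibres, so that it was bright on both arrays and 2.39-fold higher in slow fibres (1.26 ± 0.20). Myl3 ranked 861 of 12846 from the slow end. Relative to Myl3, Myl2 rose 23.8-fold from fast to slow fibres (4.57 ± 0.29) and Myl6b 41.7-fold (5.38 ± 0.29). The signals of these 3 probes thus did not shift by one common factor. Over the settings tried, the Myl3 difference ran from 1.14 to 1.71. Each of these genes has a single probe, and what else the probes detect was not tested.

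Myl1 encodes both fast essential chains, the long MLC1f and the short MLC3f, from separate starts. Its 3 probes were higher in fast fibres by unequal amounts as processed here. The brightest, annotated to the MLC1f transcript, read 274921 in fast and 91723 in slow fibres and was 3.21-fold higher in fast fibres (-1.68 ± 0.20). A second MLC1f probe read 100032 and 82493, a difference of -0.38 ± 0.20 that lies within 2-fold. The direction of this probe turned towards slow fibres under quantile normalization (0.11), normexp with quantile normalization (0.03) and spike-in scaling (0.01). The probe annotated to the MLC3f transcript read 91479 and 11646 and was 8.41-fold higher in fast fibres (-3.07 ± 0.20). Between the MLC3f probe and the second MLC1f probe the difference itself was 2.70, or 6.48-fold, and between the MLC1f probes it was 1.31. The probe sequences were not used here, so which transcripts each probe detects was not tested. By the brightest probes, Myl3 rose 7.67-fold relative to Myl1 from fast to slow fibres (2.94 ± 0.29), and Mylpf fell 7.99-fold relative to Myl1 (-3.00 ± 0.29).

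The windows before the listed start of the essential chains past 2-fold are shown with the same marks, to set the genes higher in slow fibres beside Myl1.
Myl1, chr1:66945057-66945306, minus strand: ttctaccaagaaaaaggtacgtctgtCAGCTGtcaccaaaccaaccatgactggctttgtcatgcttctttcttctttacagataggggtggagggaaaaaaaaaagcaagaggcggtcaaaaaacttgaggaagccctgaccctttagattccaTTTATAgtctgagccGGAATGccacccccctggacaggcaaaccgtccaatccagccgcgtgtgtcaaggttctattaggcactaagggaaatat
Myl3, chr9:110763428-110763677, plus strand: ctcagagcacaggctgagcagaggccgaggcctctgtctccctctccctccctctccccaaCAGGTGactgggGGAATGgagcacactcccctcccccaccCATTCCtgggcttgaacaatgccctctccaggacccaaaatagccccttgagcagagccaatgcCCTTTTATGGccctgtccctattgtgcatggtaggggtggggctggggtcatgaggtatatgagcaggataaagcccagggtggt
Myl6b, chr10:128498686-128498935, minus strand: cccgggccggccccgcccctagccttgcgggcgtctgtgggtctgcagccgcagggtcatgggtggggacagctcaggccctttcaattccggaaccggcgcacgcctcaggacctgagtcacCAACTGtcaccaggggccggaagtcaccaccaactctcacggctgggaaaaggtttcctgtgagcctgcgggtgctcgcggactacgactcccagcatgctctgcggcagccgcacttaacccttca
The Myl3 window held an E-box at -189, MCAT elements at -177 and -149 and a CArG box at -85. The Myl1 window held an E-box at -224, a TATA box at -95 and an MCAT element at -80. Its E-box had the letters CAGCTG, as did that of Mylpf and the one at -130 in the second Myl2 window. Which Myl1 transcript begins after the printed window was not determined. The Myl6b window held only an E-box, at -127, and 66% of its bases were G or C, against 59.6% for Myl3, 46.8% for Myl1, 50.4% for Myl2 and 56.4% for Mylpf. The capitals therefore showed no arrangement common to Myl3, Myl6b and Myl2, the chains higher in slow fibres, beyond an E-box.

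Myl4, the essential chain of embryonic muscle and of the heart's atria, was measured in both pools at nearly equal signals. Its brighter probe read 2505 in fast and 2183 in slow fibres (-0.30 ± 0.20) and its other probe 526 and 551 (-0.03 ± 0.20). Myl7, the regulatory chain of the atria, was well above background on neither array, with signals of 1.47 and 1.78.

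**Figure D2:**
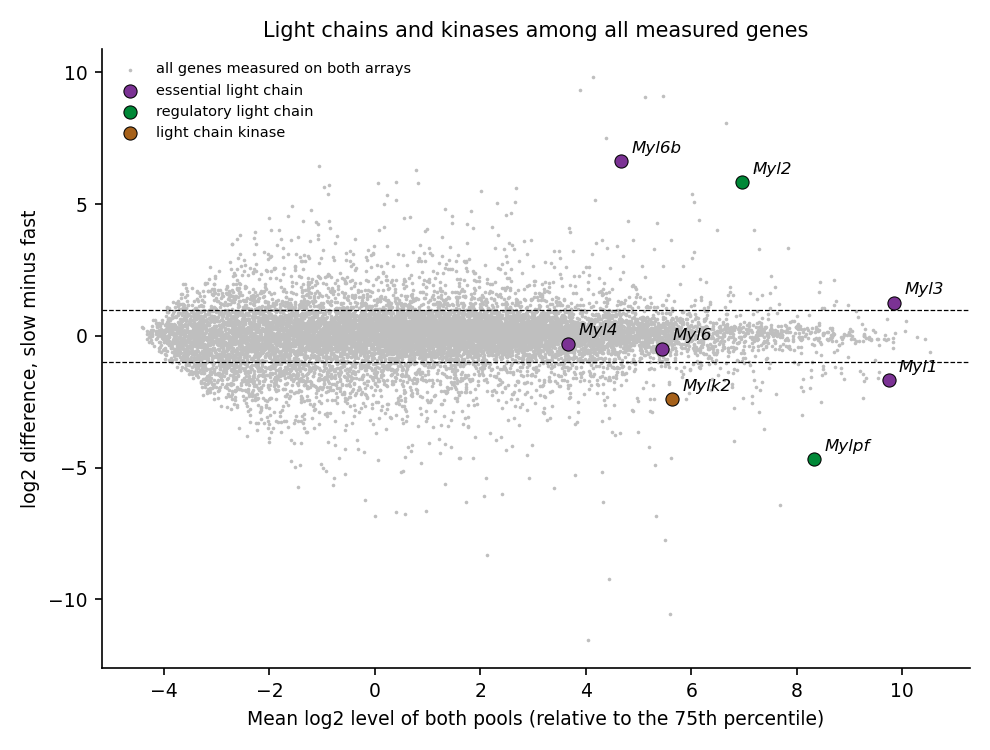
Log2 difference between the pools against the mean log2 level of both pools for the 12846 genes measured on both arrays (grey), with the 8 light chain and kinase genes among them coloured by role; each point is 1 gene by its chosen probe, and dashed lines mark 2-fold. Myl6b (6.64) and Myl2 (5.83) lie above nearly all genes and Mylpf (-4.68) below nearly all, while Myl4 and Myl6 lie within the lines. Fibre markers reach further, to 9.81 and -11.5.

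The kinases also went in opposite directions. Mylk2, the light chain kinase of skeletal muscle, read 20491 in fast and 4112 in slow fibres and was 5.33-fold higher in fast fibres (-2.42 ± 0.20). Its other probe, annotated to a predicted transcript, read 117 and 28.8 (-2.12 ± 0.22, and -1.16 or -1.13 under normexp), so that both probes were higher in fast fibres by more than 2-fold. Mylk2 ranked 285 of 12846 from the fast end. Mylpf, the chain that Mylk2 is known to phosphorylate, fell 4.80-fold relative to Mylk2 from fast to slow fibres (-2.26 ± 0.29).

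Mylk3, the light chain kinase of the heart, was well above background in slow fibres only, and by 1 of its 2 probes. That probe read 66.6 in slow fibres and 1.56, not well above background, in fast fibres. It was therefore at least 8.51-fold higher in slow fibres, a bound taken against the lowest signal well above background on the fast array, 7.32. With normexp background correction, which adds an offset to every signal, the bound fell to 1.07 or 1.13 on the log2 scale. The second Mylk3 probe, annotated to the same transcript, was well above background on neither array, at 1.63 and 1.94.

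Of 28 other genes of light chain phosphorylation, listed by name in the groups other light chains, other kinases, phosphatase, calmodulin and light chain turnover, 26 were above background on at least 1 array. Past 2-fold lay 2 towards slow and 6 towards fast fibres, together 30.8% where 25.0% of all genes were past 2-fold in either direction. That share lies near the background. The 24 genes with a measured difference had a median of -0.04. With a 1.5-fold rule 13 would be called and with a 4-fold rule 4.

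The other regulatory light chains ranged from -2.92 to 2.25. Myl12a, a regulatory chain of non-muscle myosin, read 15002 in fast and 76598 in slow fibres and was 4.77-fold higher in slow fibres (2.25 ± 0.20). Myl12b, whose coding sequence is nearly identical, read 799 and 620 (-0.46 ± 0.20), and how far the probes tell these genes apart was not tested. Myl9, the regulatory chain of smooth muscle, read 4584 and 646 and was 7.59-fold higher in fast fibres (-2.92 ± 0.20). Myl10, a regulatory chain described in lymphocyte precursors, read 91.5 and 37.1 and was 2.64-fold higher in fast fibres (-1.40 ± 0.22), but at -0.64 and -0.60 under normexp.

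Among 11 other kinases able to act on the regulatory chain, 8 were not called. Pak1, a p21-activated kinase, read 364 in fast fibres and was not well above background in slow fibres, at 4.94, so fast fibres exceeded slow ones at least 44.3-fold (a log2 bound of -5.47, and of -2.80 or -2.81 under normexp). Its relative Pak2 read 370 and 417 (0.07 ± 0.20). Dapk2, a calmodulin-dependent kinase of the death-associated family, read 732 in fast and 1893 in slow fibres and was 2.42-fold higher in slow fibres (1.27 ± 0.20). Mylk, the smooth muscle and non-muscle light chain kinase, read 89.3 and 40.2 and was 2.38-fold higher in fast fibres (-1.25 ± 0.22), with another probe above background on both arrays at -1.39, and values of -0.73 to -0.86 under normexp and spike-in scaling.

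Phosphatase and calmodulin genes mostly lay within 2-fold. Ppp1cb, the catalytic subunit, read 5584 in fast and 8029 in slow fibres (0.43 ± 0.20), and the targeting subunits Ppp1r12a and Ppp1r12b lay at 0.59 and 0.93, the latter at 1.33 under spike-in scaling. Ppp1r14c, an inhibitor of protein phosphatase 1, read 4611 and 786 and was 6.28-fold higher in fast fibres (-2.65 ± 0.20), whereas its relative Ppp1r14b lay at -0.18. Of the calmodulin genes, which encode one and the same protein, Calm3 read 3373 and 1573 (-1.20 ± 0.20) and was 2.30-fold higher in fast fibres. Calm2 lay at 0.07 (10452 and 11782). Calm3 moved to -0.81 under spike-in scaling. Mylip, a ubiquitin ligase that binds the regulatory chain, lay at -0.16.

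**Figure D3:**
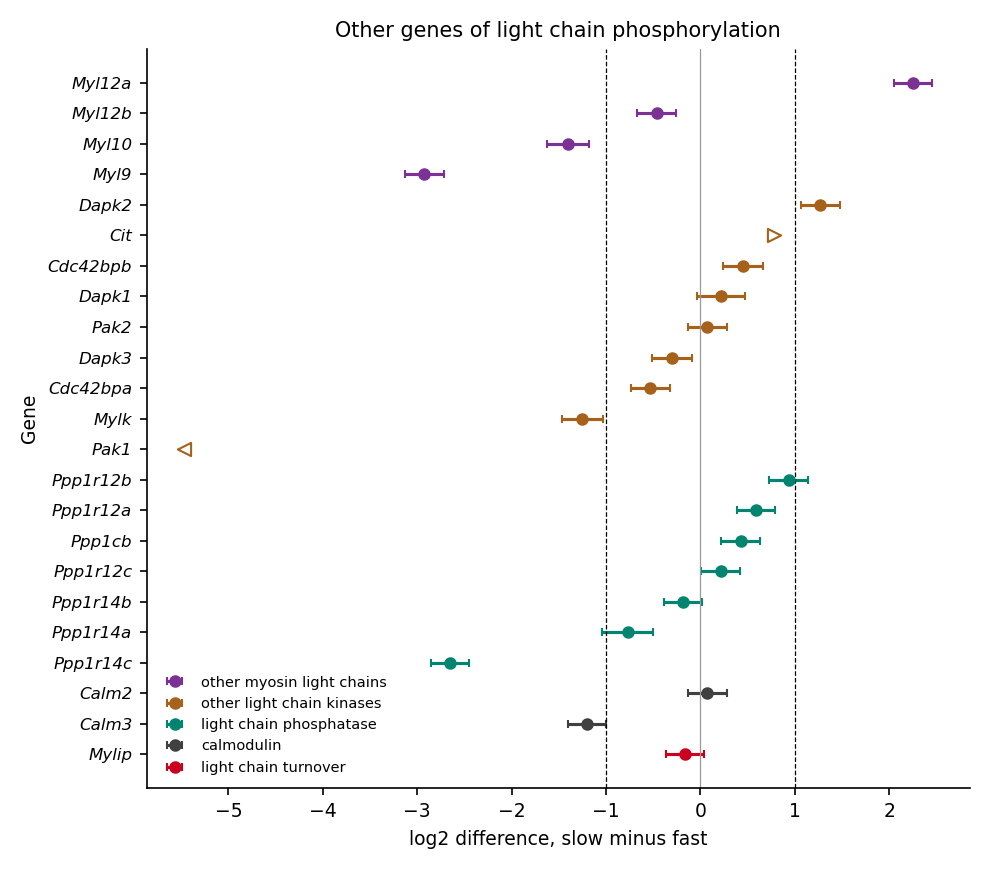
Log2 difference, slow minus fast, of 23 of the 26 other genes of light chain phosphorylation above background on at least 1 array, grouped by role; filled points are genes measured on both arrays with bars for the software error (1 SD), open triangles are lower bounds of size for genes measured on 1 array, and dashed lines mark 2-fold. Most points lie between the lines, with Myl12a (2.25) farthest to the right and Pak1 farthest to the left.

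Markers of other cells differed between the pools beside these genes. Of 10 smooth muscle and pericyte markers, 9 were above background: 3 passed 2-fold towards fast and 1 towards slow fibres, and 5 lay within 2-fold. Their differences ran from -1.61 to 1.24, with a median of -0.64. Their signals summed to 146845 for fast and 146548 for slow fibres, but such a sum adds unlike probes and says little of the single markers. Acta2, smooth muscle actin, read 139689 and 136890 (-0.13 ± 0.20) and made up most of both sums. How far its probe tells it from other actin genes was not tested. Myh11, the smooth muscle heavy chain, read 34.2 and 23.5 (-0.64 ± 0.25), and Lmod1 was not well above background. Towards fast fibres, 7 of 8 endothelial markers (summed signals 4027 and 979) and 7 of 7 fibroblast markers (28270 and 7427) passed 2-fold. The 4 erythrocyte markers with a probe did so too (16961 and 6793). The part of such cells in the lower Myl9, Mylk and Myl10 signals of the slow pool was not tested. The satellite cell marker Pax7 read 13.1 and 21.3, and Myf5 was well above background on neither array.

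By the probe that stands for each gene, the members past 2-fold kept their direction under each scaling, background correction, probe rule and source of values tried, where a value could be had. Among differences within 2-fold, both Myl4 probes (0.09 and 0.36 under spike-in scaling) and the second MLC1f probe of Myl1 changed direction. Spike-in controls moved every difference up by 0.39, and the authors' table moved the median of all genes by -0.11. In fast fibres Mylpf, Mylk2 and Myl1, and in slow fibres Myl6b, Myl2 and Myl3, stayed past 2-fold under all of these. The share of all calls that were higher in slow fibres was 42.8%, and 68.7% under spike-in scaling.

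**Figure D4:**
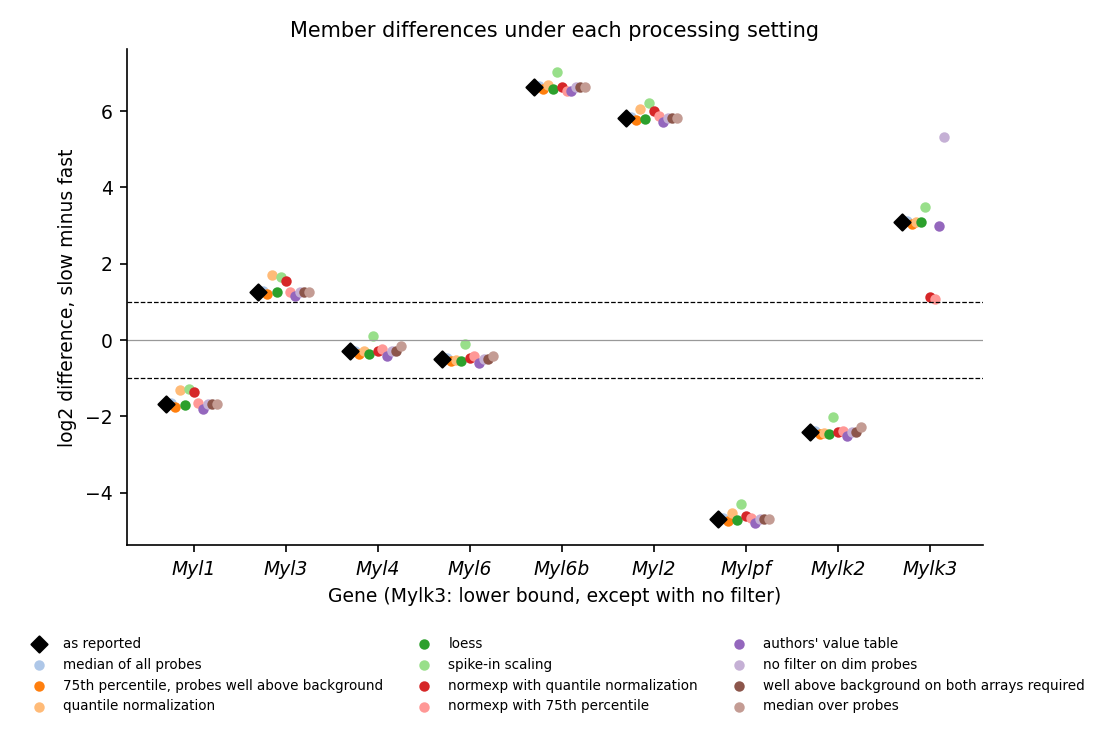
Log2 difference, slow minus fast, of the 9 light chain and kinase genes under the reported processing (black diamonds) and each alternative (coloured points); dashed lines mark 2-fold, and Mylk3 values are lower bounds except with no filter on dim probes. Points of one gene lie close together except for Mylk3, whose values run from 1.07 to 5.32.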

How the data were processed

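RNA of 1 fast and 1 slow fibre pool was measured on 1-colour Agilent arrays. The deposited spot intensities are linear and, per the file headers, were background-subtracted and detrended by Feature Extraction (Agilent Feature Extraction 12.0.3.1 in the submitters' processing notes), with no normalization between arrays; flags are 0 or 1. The authors' value table holds these intensities times 2.83 (fast) and 2.45 (slow), with no log or centring and medians of 30.1 and 27.1; what the factors scale to is unknown.

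Control spots and 159 outlier spots were left out and repeated spots averaged. Each array's 75th percentile over non-control spots was subtracted from its log2 intensities. Of 56596 probes, 33763 (59.7%) matched a gene by accession in RefSeq's GRCm38.p6 table, used for names and neighbours only, since the array design is on mm9. The brightest probe above background on at least 1 array stood for a gene; where 1 array was dim, a bound was taken against the higher of the dim signal and the lowest signal well above background there. The genes to be named were all members, pathway genes past 2-fold, the 3 brightest others per group, the 3 nearest genes of the extreme members, and Myh7, Myh4, Acta2 and Myh11; Ppp1r12b, Myl7, Lmod1, Pax7 and Myf5 were added after their values were seen. A few pathway genes that the rule names are not reported here. Members and lists were chosen with earlier results of these data known. Alternatives used limma 3.58.1 (normexp on median signals, offset 50; loess, span 0.3). Promoter windows are RefSeq's (9 of 10 members matched, Mylk2 not).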

Additional observations from a re-analysis of the deposited data

How the results depend on the processing

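Under 13 alternatives, 3 members stayed past 2-fold towards fast fibres, except with a 4-fold rule (2, without Myl1). Towards slow fibres 4 did, or 3 with the 4-fold rule (without Myl3), with both arrays required or with the median over probes (both without Mylk3, which then has no value). Of 97 member differences under alternatives, 81 moved by less than the software error and 16 by more, and of the members past 2-fold 0 reversed. That error was 0.20 for each member measured on both arrays and 1.46 for Mylk3. It does not measure shifts that come from scaling, so the count of 81 is only a yardstick of size. Other light chain pathway genes past 2-fold numbered 8, but 13 with a 1.5-fold rule and 4 with a 4-fold rule, since the rule itself sets the count. Spike-in scaling gave 4 of them in each direction. Over all genes, normexp reduced the calls from 1569 to 775 (quantile) or 788 (percentile) towards slow and from 2093 to 988 or 992 towards fast fibres, and no filter on dim probes raised them to 2502 and 3092. The authors' table put 36.7% of calls towards slow fibres, against 42.8% as reported. No paired analysis was possible because each group has 1 array. Signals near background, as for Mylk3, leave its size uncertain.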
